A study of Mus musculus with 8 samples.

Results

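The late response to BMP4 was read as the difference between enteroendocrine cells sorted after 4 d of BMP4 and those sorted after 24 h, on 4 plates that hold both conditions. Its members are the wells of plate columns 13 to 24 (4 d) and 7 to 12 (24 h) of Tac1-Cre 1, Gcg-Venus 1, Gcg-Venus 2 and Gip-Cre that held at least 2000 transcripts outside spike-in and mitochondrial rows. This gave 572 cells of 1152 wells, 295 of 4 d and 277 of 24 h, out of 1006 such cells of 3072 wells on the 8 plates of the series. All cells came from C57BL/6 mouse intestinal organoids that carry a hormone reporter, and live reporter-positive cells were sorted one to a well into 384-well plates with spike-in RNA. The 4 d cells had BMP4 for 4 days and the 24 h cells for 24 hours, and 270 untreated cells of columns 1 to 6 on the same plates had no BMP4. The Tac1 and Gip lines are named as Cre lines, in which a cell may keep its label after the gene has been switched off, and the Gcg line is named as a Venus line. The labels do not tell whether each plate was its own culture, so the p-values speak only of the spread among plates, part of which can be technical. Position on the plate and time in BMP4 cannot be told apart.

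Enteroendocrine cells are the scattered hormone-making cells of the gut lining. They arise in the crypt and move with their neighbours toward the villus, where bone morphogenetic protein signalling is stronger. BMP4 binds receptor pairs that phosphorylate Smad proteins, and these switch on targets such as the Id genes and the inhibitory Smads, which damp the same signal. The hormones made along this axis differ: Tac1 and serotonin mark enterochromaffin cells low in the epithelium, whereas secretin is known from cells of the villus. The comparison of 4 d with 24 h asks what changes after the first day, once the early targets are on.

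Fewer 4 d wells held a cell that passed, and those that did held fewer genes. Kept wells made up 21.4, 49.5, 12.5 and 70.3% at 4 d, against 56.2, 72.9, 86.5 and 72.9% at 24 h, on Tac1-Cre 1, Gcg-Venus 1, Gcg-Venus 2 and Gip-Cre, the plate order of every set of 4 values that follows. The share was lower at 4 d on 4 of 4 plates, by 33.7 ± 29.97 percentage points on average (SD over 4 plates), and an exact permutation test that flips signs over plates gave p = 0.13 (two-sided), the lowest value that 4 pairs can reach. Median genes per kept cell were 1670, 2847, 2110 and 1571 at 4 d, against 2199, 3003, 4022 and 2463 at 24 h, lower on 4 of 4 plates (exact permutation p = 0.13). Median transcripts per kept cell ran from 3983 to 9898 at 4 d and from 5553 to 15426 at 24 h. Median spike-in transcripts per kept cell were 365 to 811 at 4 d, against 322 to 846 at 24 h. On Tac1-Cre 1, where mitochondrial genes were listed, their share was 6.40% at 4 d and 6.82% at 24 h. Gene tests used the sum over the kept cells of 1 plate and condition, so n counts plates, and the 8 sums held 167106 to 1216542 transcripts. The smallest, that of Gcg-Venus 2 at 4 d, came from 24 cells.

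The label of the cells, enteroendocrine, held for most but not all of them. Clustering 842 cells of the 4 plates without the hormone and BMP target genes gave 9 enteroendocrine-like clusters, 1 enterocyte-like, 1 goblet-like and 2 that took no name. Enteroendocrine-like cells were 65.9, 53.7, 70.8 and 60.7% of kept cells at 4 d, against 92.6, 84.3, 75.9 and 91.4% at 24 h. Unnamed cells were 34.1, 16.8, 16.7 and 36.3% at 4 d, against 7.41, 5.71, 2.41 and 8.57% at 24 h. These shares are descriptions, since the genes that place a cell in a cluster may themselves differ between conditions. The unnamed clusters held 96 and 18 cells of all conditions, and Kcnq1ot1, a nuclear antisense RNA, was at 198846 and 227435 CPM (transcripts of a gene per 1000000) in them. In the larger, 5 of 18 endocrine markers were found in at least 50% of the cells, and the median depth of a cell was 0.614 of its plate's. Goblet-like cells numbered 0, 8, 2 and 1 at 4 d, against 0, 3, 2 and 0 at 24 h, and enterocyte-like cells 0, 20, 1 and 3 at 4 d, against 0, 4, 16 and 0 at 24 h. The summed level of 7 goblet markers was 2147 to 24446 CPM at 4 d, against 663 to 4496 CPM at 24 h. That of 13 enterocyte markers was 1955 to 34800 CPM at 4 d, against 2440 to 28174 CPM at 24 h, and that of 18 endocrine markers 7737 to 42316 CPM at 4 d, against 11746 to 84548 CPM at 24 h. No marker of these lists was at 0 in all 8 sums. In sums of cells, fewer cells of a type and less RNA per cell cannot be told apart.

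**Figure D1:**
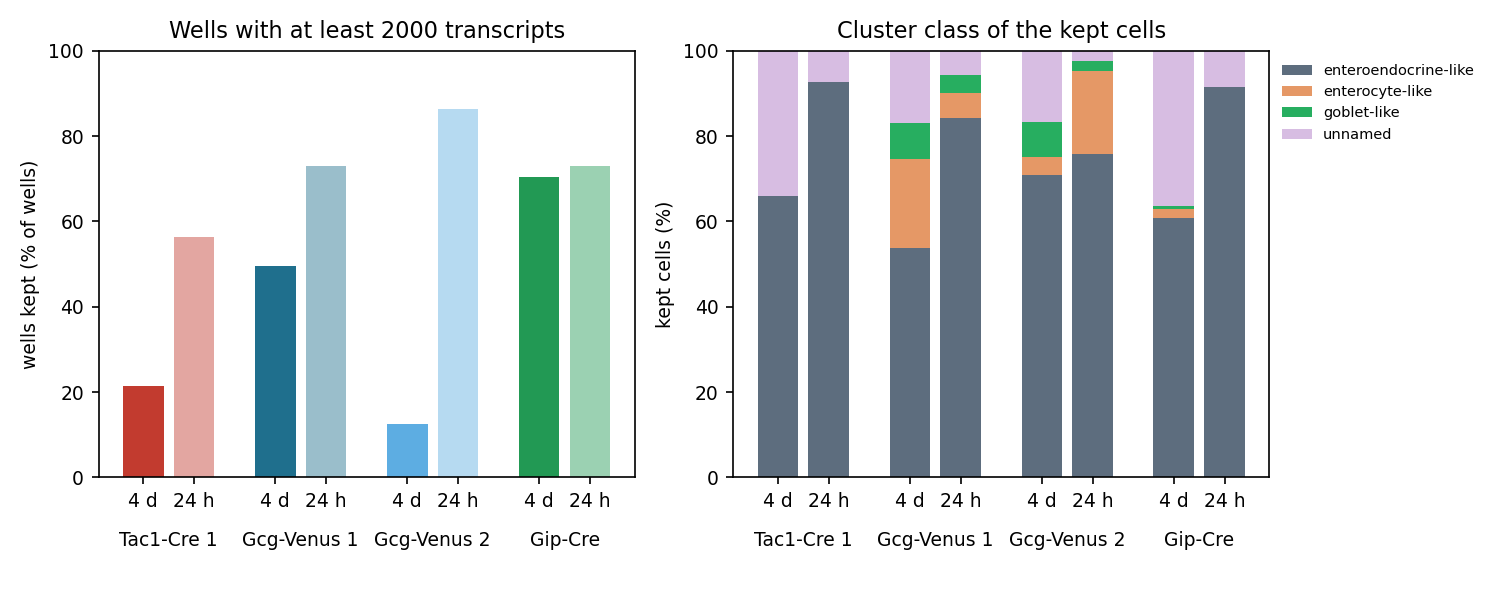
Share of wells kept, in percent, and shares of kept cells in the cluster classes, in percent, for 4 d and 24 h on each of 4 plates. On all 4 plates fewer wells were kept at 4 d (12.5 to 70.3%) than at 24 h (56.2 to 86.5%), and the unnamed share was higher at 4 d (16.7 to 36.3%) than at 24 h (2.41 to 8.57%).

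Over all kept cells, 12 of 8272 genes passed (0.145%; edgeR's quasi-likelihood test with plate as a block, adjusted p under 0.05), 8 higher at 4 d (0.0967%) and 4 lower (0.0484%). An unadjusted p under 0.05 was reached by 806 genes (9.74%), and the median log2 change of all genes was 0.01. On the same plates and in the same fit, 7 genes passed at 24 h against untreated (0.0846%) and 188 at 4 d against untreated (2.27%). The 3 comparisons share samples.

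Of the 8 that rose, 2 are described first. Gsdma, a gasdermin gene of chromosome 11 with close copies that may share its reads, stood at 260.4, 124, 60.9 and 54.5 CPM at 4 d, against 17.8, 17.3, 21 and 5.33 at 24 h. Over the 4 plates it rose by 2.81 ± 0.32 as a log2 change with its SE, as are all changes that follow (edgeR adjusted p = 0.0058), with untreated cells at 11.1, 4.77, 5.52 and 1.85 CPM. Sstr1, a somatostatin receptor gene of chromosome 12, stood at 391, 119.8, 219 and 172 CPM at 4 d, against 109.7, 49.4, 48.4 and 42.6 at 24 h, and rose by 1.80 ± 0.23 (adjusted p = 0.0094). Sstr1 had also passed at 24 h against untreated, at 2.22 ± 0.29, whereas Gsdma had not, at 1.59 ± 0.45 (adjusted p = 0.77).

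Kcnc1 and Cwh43 also rose, with their highest levels on the Tac1-Cre plate. Kcnc1, a voltage-gated potassium channel gene, stood at 379, 6.21, 6.09 and 79.8 CPM at 4 d, against 50.4, 0, 3.23 and 14.2 at 24 h (2.58 ± 0.44, adjusted p = 0.043). Cwh43, whose product acts on lipid-anchored proteins in yeast, stood at 226, 18.6, 18.3 and 1.27 CPM at 4 d, against 29.7, 0, 2.42 and 0 at 24 h (3.19 ± 0.55, adjusted p = 0.043). Both genes stayed under 20 CPM on the Gcg-Venus plates. Kcnc1 rested there on 7 and 1 transcripts at 4 d, against 0 and 4 at 24 h. In enteroendocrine-like clusters Kcnc1 passed (2.68 ± 0.42, adjusted p = 0.0025), higher on 3 plates and lower on 1. The lower plate was Gcg-Venus 2, at 0 CPM at 4 d, against 3.42 at 24 h.

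The other 4 that rose are genes of goblet cells, the mucus-making cells. They make up 4 of 7 tested genes of that list (list median 2.81, against 0.01 over all genes). The remaining 3 did not pass, and changes in the list ran from -1.55 to 4.69. Muc2, the main secreted gut mucin, stood at 17, 1857, 828 and 70.9 CPM at 4 d, against 5.93, 243, 119 and 1.77 at 24 h and 17.7, 1262, 332 and 168 in untreated cells (2.81 ± 0.48, adjusted p = 0.043). Its untreated level thus lay above the 24 h level on 4 of 4 plates, at -2.64 ± 0.49 for 24 h over untreated (adjusted p = 0.099), and 4 d over untreated was at 0.17 ± 0.45 (0.93). Fcgbp, a mucus protein that binds it, stood at 181, 6390.5, 3082 and 715 CPM at 4 d, against 20.8, 877, 389.9 and 63.9 at 24 h and 39.8, 3811, 476 and 790.1 in untreated cells (3.07 ± 0.47, adjusted p = 0.031). It was likewise lower at 24 h than in untreated cells on 4 of 4 plates, at -1.93 ± 0.47 (adjusted p = 0.49), and 4 d over untreated was at 1.15 ± 0.44 (0.24). Zg16, a lectin of mucus granules, rose by 4.08 ± 0.69 (adjusted p = 0.043). Clca1, a protease of mucus, rose by 4.69 ± 0.49 (adjusted p = 0.0058), with 0 transcripts on Tac1-Cre 1 in either condition and 0, 1794, 895 and 45.6 CPM at 4 d, against 0, 85.2, 31.5 and 0 at 24 h. At 4 d over untreated Zg16 and Clca1 passed, at 3.08 ± 0.68 (adjusted p = 0.035) and 6.92 ± 0.59 (0.00018). In that contrast 1 other gene of the list passed as lower. Goblet-like cells numbered 0 on Tac1-Cre 1 in both conditions, where Fcgbp was higher at 4 d. On Gcg-Venus 2 they were 2 of 24 kept cells at 4 d (8.33%), against 2 of 83 at 24 h (2.41%). The part of goblet-like cells in these changes was not tested. In sums of enteroendocrine-like clusters alone Muc2 was at 0.33 ± 0.68 (adjusted p = 0.94) and Fcgbp at 0.73 ± 0.57 (0.75), and Clca1 and Cwh43 were too low to be tested, while Zg16 still rose by 1.75 ± 0.25 (0.0024).

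The 4 genes that fell all lay below their 24 h level on 4 of 4 plates. Acly, the enzyme that makes cytosolic acetyl-CoA from citrate, stood at 187, 216, 225 and 295 CPM at 4 d, against 409, 574, 530.4 and 708 at 24 h (-1.26 ± 0.19, adjusted p = 0.031). Gfra3, the receptor for the neurotrophic factor artemin, stood at 22.6, 31.9, 60.9 and 57 CPM at 4 d, against 160.1, 222, 125 and 149 at 24 h (-1.97 ± 0.32, adjusted p = 0.043). Fmo1, a flavin monooxygenase gene, stood at 11.3, 7.10, 12.2 and 24.1 CPM at 4 d, against 151, 53.1, 37.1 and 65.7 at 24 h (-2.27 ± 0.34, adjusted p = 0.031). Sncb, the beta-synuclein gene, had 3 transcripts over the 4 sums at 4 d and 46 at 24 h, a ratio of 0.0769 with an exact 95% interval of 0.0153 to 0.239 that covers counting error only (adjusted p = 0.043). Untreated levels of Acly, Gfra3 and Fmo1 were 445, 674, 961 and 731 CPM, 128, 271, 298 and 183 CPM and 137, 31, 41.4 and 85.1 CPM, and none of the 3 passed at 24 h against untreated. Clca1, Cwh43 and Sncb lie outside the rule for named genes and are given because they complete the 12.

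The number of calls turned on single plates, the size of the changes less so. Without Tac1-Cre 1 only Clca1 passed, and without Gip-Cre none did, while without Gcg-Venus 1 there were 99 higher and 17 lower, and without Gcg-Venus 2 56 and 12. Sstr1 was at 1.79 without Tac1-Cre 1 and at 1.74 without Gip-Cre (adjusted p = 0.18 and 0.13), and Acly at -1.30 and -1.27 (0.2 and 0.2). Gsdma was at 2.51 and 2.71 (adjusted p = 0.12 and 0.087). Zg16 was at 3.30 without Gip-Cre, against 4.08 with it, and Kcnc1 and Cwh43 were too low to be tested without Tac1-Cre 1.

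**Figure D2:**
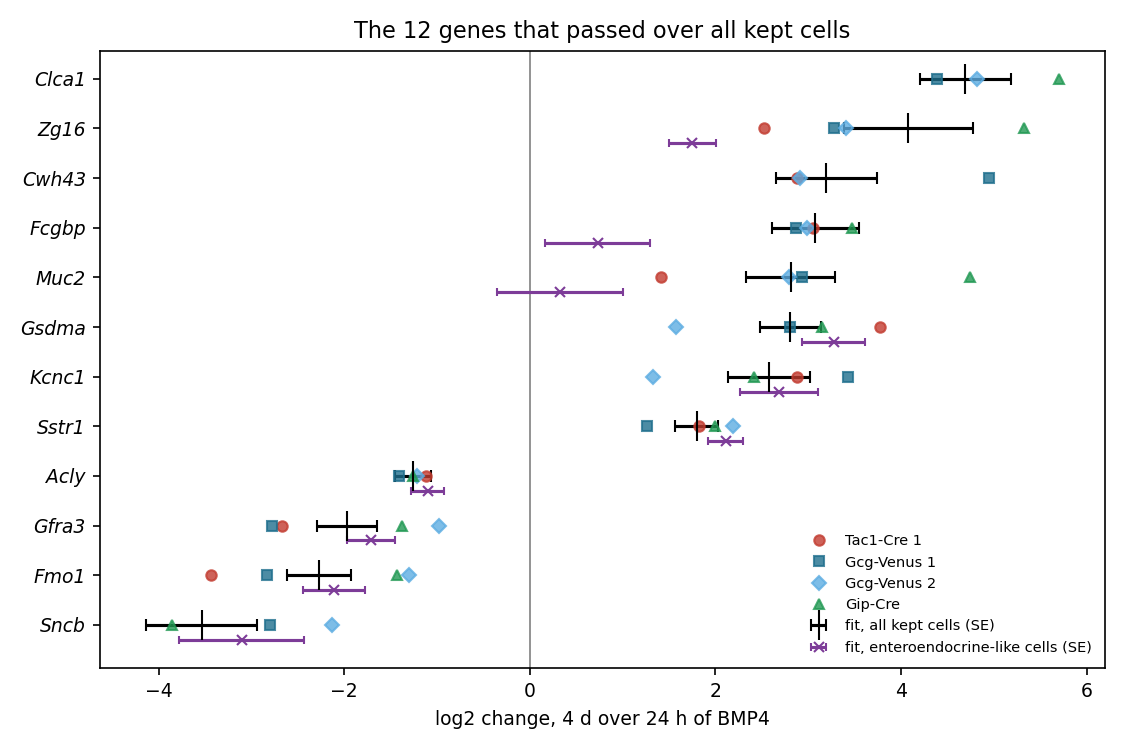
Log2 ratio of the level at 4 d to that at 24 h for the 12 genes that passed over all kept cells. Points are single plates with at least 5 transcripts of the gene, black marks the fit over all kept cells with its SE, and purple marks the fit over enteroendocrine-like clusters with its SE. Muc2 and Fcgbp lie at 0.33 and 0.73 in enteroendocrine-like clusters, against 2.81 and 3.07 over all kept cells, while Gsdma lies at 3.27 there and at 2.81 over all kept cells.

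Genes next in rank did not pass over all kept cells and are given as values. Among those higher on 4 of 4 plates (7.71% of all genes) were Tmsb4x, an actin-binding protein gene with close copies, at 2.21 ± 0.42 (adjusted p = 0.064), and the pseudogenes Mageb16-ps1 at 1.75 ± 0.32 and Rdh18-ps at 1.12 ± 0.22. Zfp560, a zinc finger gene, was at 1.38 ± 0.27. The lower ones on 4 of 4 plates (9.26% of all genes) included the neurofilament gene Nefm at -1.43 ± 0.28, the drebrin gene Dbn1 at -1.67 ± 0.31, the gut glutathione peroxidase gene Gpx2 at -1.80 ± 0.34, C2cd4b at -1.33 ± 0.24 and the kinase gene Pim2 at -0.87 ± 0.17. Over all kept cells the adjusted p of these genes ran from 0.054 to 0.072. In enteroendocrine-like clusters Zfp560 was at 0.40 ± 0.21 (adjusted p = 0.55) and Rdh18-ps at 0.85 ± 0.32 (0.35). Mageb16-ps1 was not tested there, and Pim2 did not pass (0.066). Tmsb4x, Nefm, Dbn1, Gpx2 and C2cd4b did pass there.

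Restricting the sums to enteroendocrine-like clusters, which held 27, 51, 17 and 82 cells at 4 d and 50, 59, 63 and 64 at 24 h, raised the number of calls. In that alternative 62 of 7694 genes passed (0.806%), 36 higher (0.468%) and 26 lower (0.338%), and 744 had an unadjusted p under 0.05 (9.67%). It shared 8 genes with the 12 of all kept cells, 66.67% of those 12 and 12.9% of the 62. Of the 62, 50 had one direction on 4 of 4 plates (7.59% of all genes tested there were higher and 10.2% lower on all 4), and 14 passed whichever plate was left out, 9 higher and 5 lower. The 14 were Sstr1, Gsdma, S100a10, Pcsk1n, B4galnt2, Id1, Tbx3, Crip1 and Nts, and Gfra3, Iapp, Fmo1, Acly and Meg3, the last of which was lower on 3 plates and higher on 1. Genes of the 62 that are named without being in a list were chosen after their values were seen.

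Sstr1 rose by 2.11 ± 0.18 in enteroendocrine-like cells (edgeR adjusted p = 2.7e-06), standing at 480.1, 257, 299 and 205 CPM at 4 d, against 121, 56.4, 66.2 and 46.3 at 24 h. S100a10, a partner protein of annexin 2, stood at 134, 386, 416 and 111 CPM at 4 d, against 6.56, 160.4, 130.1 and 9.65 at 24 h (1.95 ± 0.29, adjusted p = 0.0025). B4galnt2, an enzyme that adds a terminal sugar to glycans of the gut surface, stood at 664, 646, 499 and 520.1 CPM at 4 d, against 115, 311, 298 and 127 at 24 h (1.57 ± 0.25, adjusted p = 0.0025). In each of these genes every plate was higher at 4 d, although plates differed in level. Crip1, a small LIM-domain protein gene, rose by 0.99 ± 0.19 (adjusted p = 0.013), Npc1l1, the intestinal cholesterol transporter, by 0.89 ± 0.19 (0.027) and Krt7, a keratin gene, by 0.86 ± 0.20 (0.046).

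Scin, which encodes the actin-severing protein adseverin, stood at 0, 25.7, 49.9 and 1.59 CPM at 4 d, against 6.56, 189, 177 and 7.72 at 24 h, and fell by 2.57 ± 0.37 (adjusted p = 0.0024). Il17re, a subunit of the interleukin 17C receptor, stood at 49.4, 17.8, 41.6 and 9.54 CPM at 4 d, against 722, 54.9, 57 and 23.2 at 24 h (-2.19 ± 0.38, adjusted p = 0.0069). Gstt1, a glutathione transferase gene, was at 727, 11.9, 0 and 122 CPM at 4 d, against 3922, 31.8, 11.4 and 187 at 24 h (-1.56 ± 0.28, adjusted p = 0.009). Most of the Gstt1 transcripts were on the Tac1-Cre plate. Avpr1b, a vasopressin receptor gene, was lower on the 3 plates that held it (-2.56 ± 0.46, adjusted p = 0.011), and Aqp4, a water channel gene, on all 4 (-1.40 ± 0.32, 0.046).

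**Figure D3:**
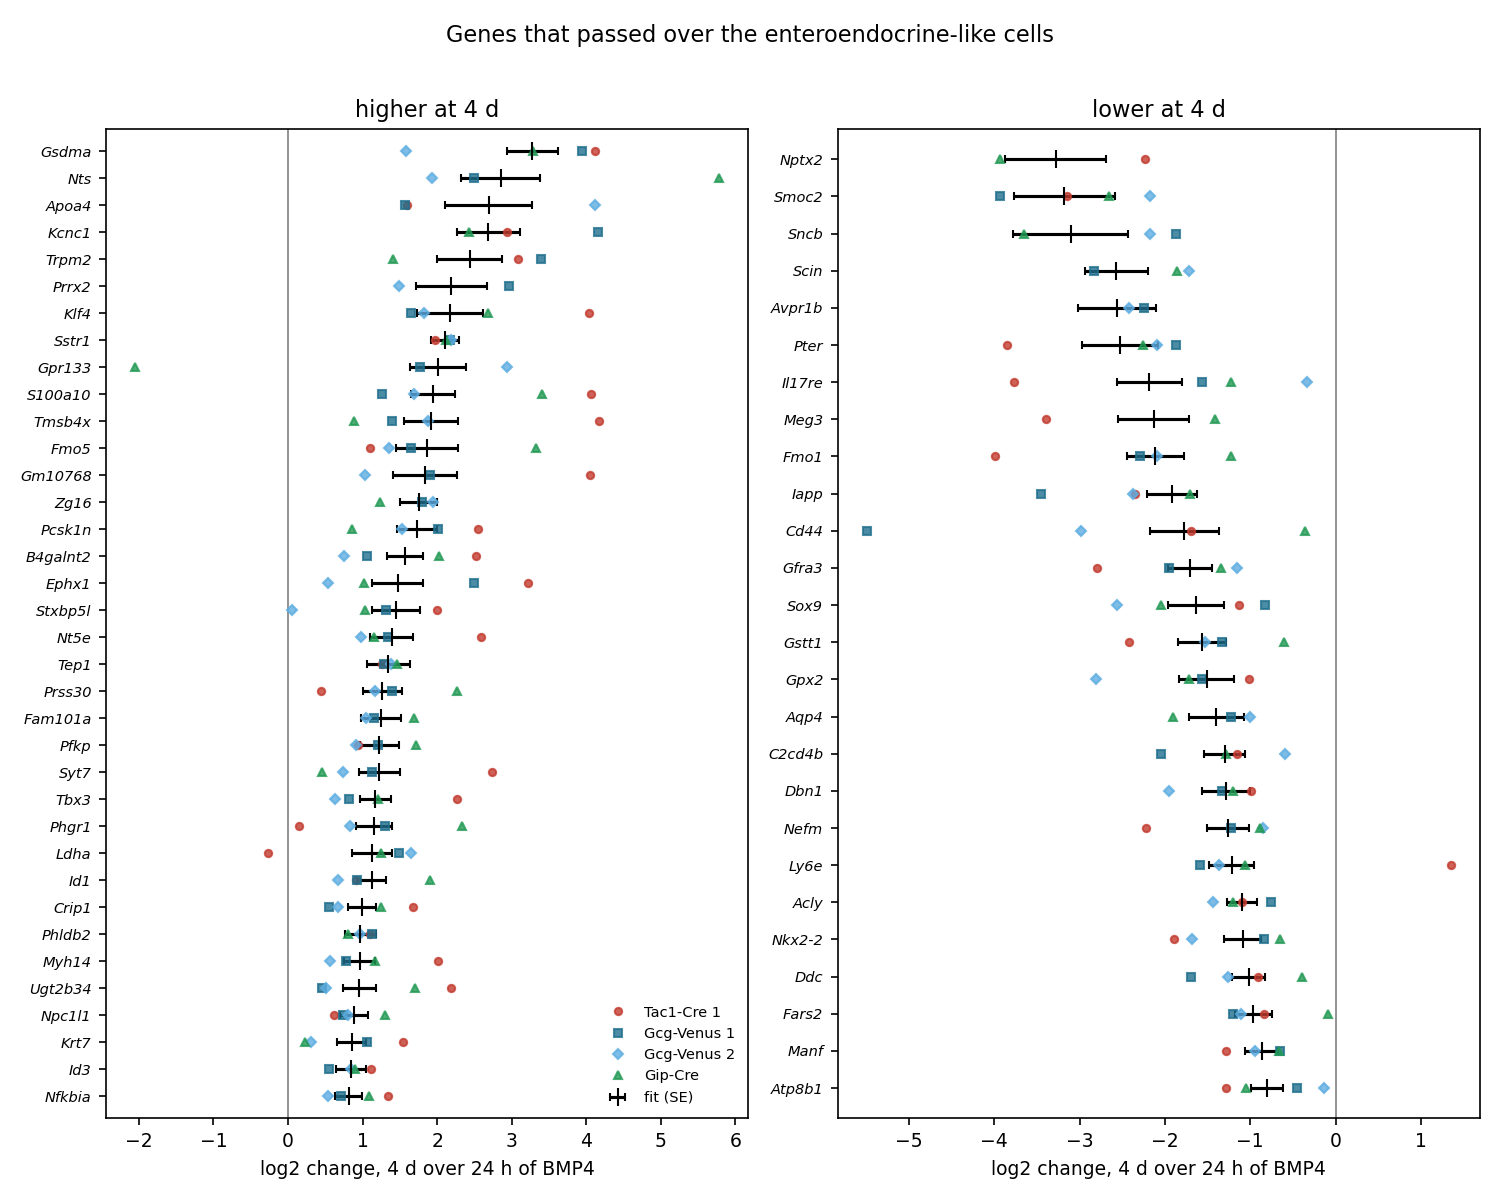
Log2 ratio of the level at 4 d to that at 24 h for the 62 genes that passed in enteroendocrine-like clusters, 36 higher on the left and 26 lower on the right, with single plates of at least 5 transcripts as points and the fit with its SE in black. The 4 plates of Sstr1 lie between 1.97 and 2.18, while those of Tmsb4x spread from 0.89 to 4.17.

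Among hormones, no gene passed over all kept cells (0 of 11 tested of 19 listed; median -0.90, against 0.01 over all genes), and the plates of different reporter lines differed widely. Sct, the secretin gene, stood at 3872, 17624, 33818 and 14740.0 CPM at 4 d, against 2838, 15973, 13525 and 4219 at 24 h and 329.6, 1546, 1905 and 305 in untreated cells. It was higher at 4 d on 4 of 4 plates, at 0.99 ± 0.36 on the log2 scale, and did not pass (adjusted p = 0.35; 1.17 ± 0.29 and 0.064 in enteroendocrine-like cells). At 24 h against untreated it had passed, at 3.24 ± 0.39 (adjusted p = 0.0025). After thinning each cell to 2000 transcripts, at least 5 Sct transcripts were found in 81.5, 96.1, 88.2 and 68.3% of enteroendocrine-like cells at 4 d, against 22, 83.1, 71.4 and 32.8% at 24 h. The mean shares were 83.5% at 4 d and 52.3% at 24 h, 31.2 ± 21.3 points apart (SD over 4 plates; the same exact permutation test gave p = 0.13, again its lowest value). Unthinned, the shares were 88.9, 100, 88.2 and 84.1% at 4 d, against 34, 98.3, 95.2 and 53.1% at 24 h, so that on Gcg-Venus 2 the direction depended on depth. Over all kept cells the thinned shares averaged 65.1% at 4 d and 45.02% at 24 h (exact permutation p = 0.25), and of the enterocyte-like and goblet-like cells of all conditions, which should lack the hormone, 3 of 82 reached 5 transcripts (3.66%).

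Nts, which encodes neurotensin, was highest on the Gcg-Venus plates. It stood at 0, 50853, 76509 and 218 CPM at 4 d, against 0, 17102, 19440.0 and 3.55 at 24 h, with no transcript on Tac1-Cre 1 in either condition. Of the other 4 d plates of the Tac1 line, on which no test was made, 1 held it at 1003 CPM, another at 10.2 and Tac1-Cre 2 at 0. Over all kept cells it was at 2.68 ± 0.67 (adjusted p = 0.15), and in enteroendocrine-like clusters it rose by 2.85 ± 0.53 (adjusted p = 0.013), higher on the 3 plates that held it. On the Gcg-Venus plates 92.2 and 94.1% of thinned enteroendocrine-like cells held at least 5 Nts transcripts at 4 d, against 47.5 and 49.2% at 24 h, while on Gip-Cre it was 2.44% at 4 d and 0% (0 of 64) at 24 h. Unthinned, nearly all cells of the Gcg-Venus plates reached 5 transcripts, 98 and 100% at 4 d, against 96.6 and 100% at 24 h, so the difference in shares was seen only at the thinned depth. Of the enterocyte-like and goblet-like cells 12 of 82 reached 5 Nts transcripts after thinning (14.6%).

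Gcg, the proglucagon gene that yields GLP-1, stood at 39.6, 2354, 4561 and 40.5 CPM at 4 d, against 11.9, 37047, 31559 and 40.8 at 24 h. On both Gcg-Venus plates it was lower at 4 d, but across plates it was at -1.77 ± 1.00 and did not pass (adjusted p = 0.63). Pyy, peptide YY, stood at 164, 13963, 38635 and 8815 CPM at 4 d, against 353, 14930.0, 14476 and 2634 at 24 h (0.64 ± 0.71, adjusted p = 0.84), higher on 2 plates and lower on 2. Cck, cholecystokinin, stood at 272, 8212, 5085 and 4827 CPM at 4 d, against 163, 30624, 24647 and 925 at 24 h (-0.18 ± 0.89, adjusted p = 1.0). It was lower on both Gcg-Venus plates and higher on the other two. Gip, the incretin of K cells, stood at 14283, 2380.1, 1632 and 130150.0 CPM at 4 d, against 5568, 22968, 11688 and 153450.0 at 24 h (-1.29 ± 0.70, adjusted p = 0.61), close on the Gip-Cre plate and lower on both Gcg-Venus plates.

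Sst, somatostatin, was lower at 4 d on 4 of 4 plates, at 7110.4, 42.6, 536 and 54058 CPM against 7472, 2081, 7136 and 80218 at 24 h, and did not pass (-2.85 ± 0.99, adjusted p = 0.32). Iapp, the amylin gene, stood at 5.66, 0, 12.2 and 266 CPM at 4 d, against 47.4, 8.64, 75.9 and 962 at 24 h. It missed the threshold over all kept cells (-2.20 ± 0.41, adjusted p = 0.064) and fell in enteroendocrine-like clusters (-1.92 ± 0.30, 0.0025). Tac1, the substance P precursor, stood at 362, 9.76, 6.09 and 19 CPM at 4 d, against 2129, 0, 10.5 and 16 at 24 h (-0.90 ± 0.63, adjusted p = 0.71), with nearly all of it on the Tac1-Cre plate, where it was lower at 4 d. Ucn3, a urocortin, was at -1.16 ± 0.49 and Ghrl, ghrelin, at 0.19 ± 0.79, neither passing.

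**Figure D4:**
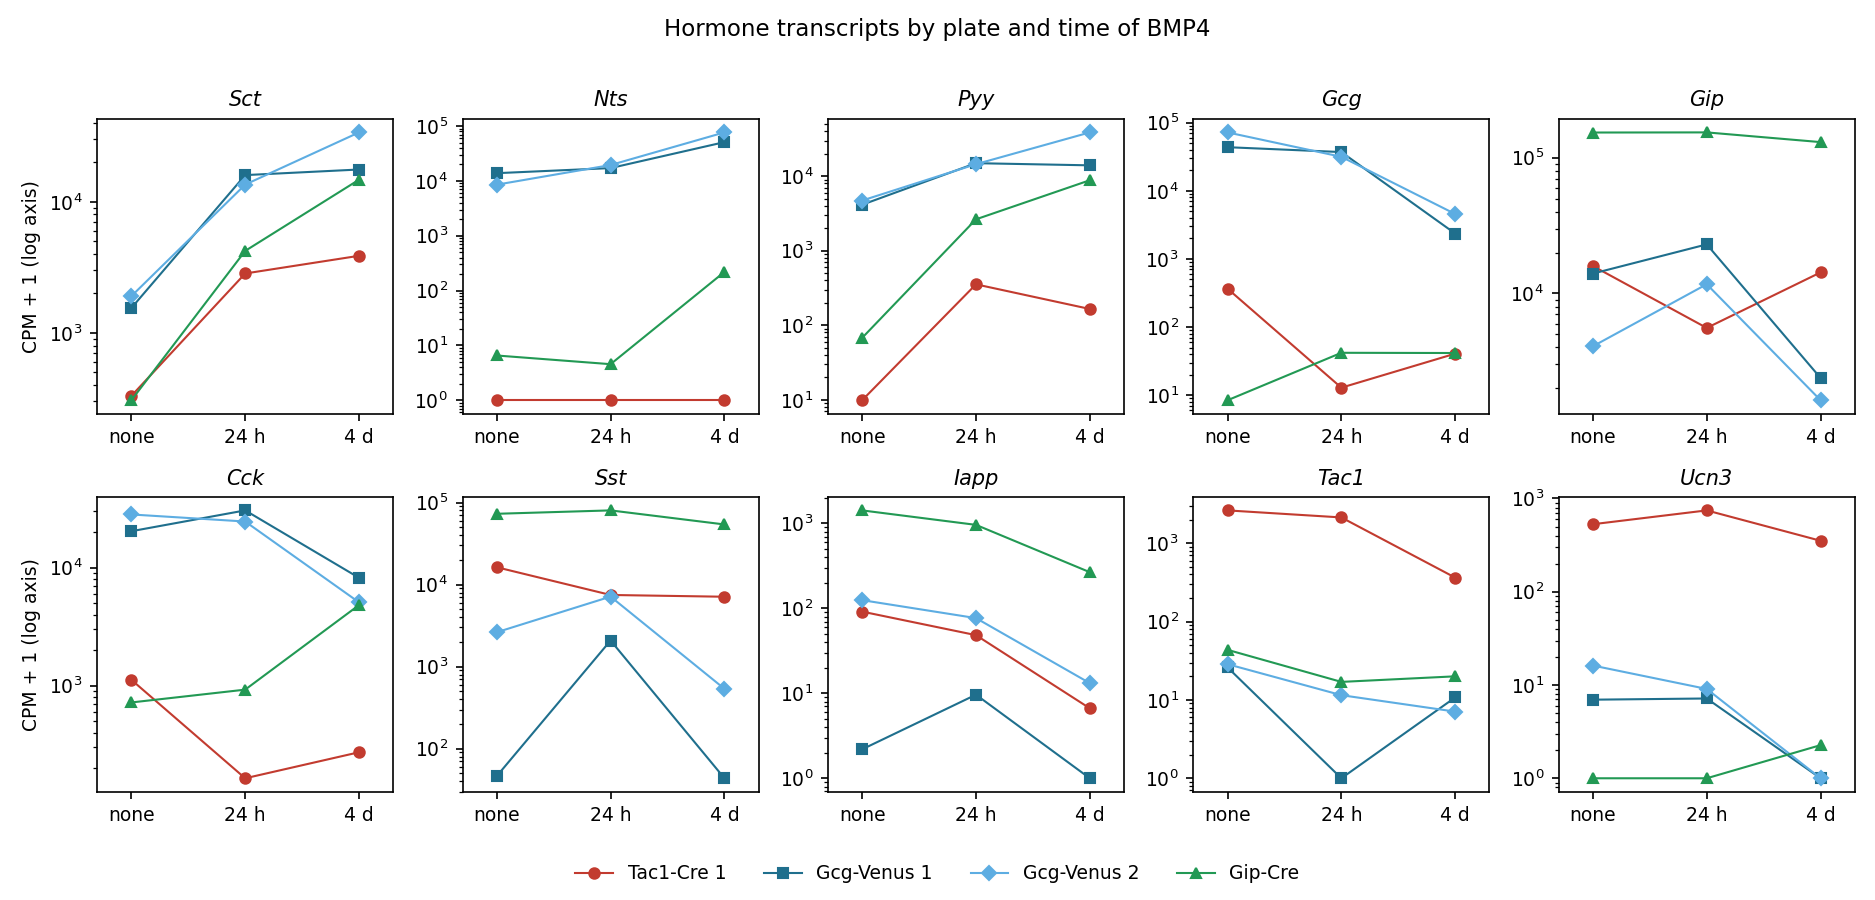
Levels of 10 hormone genes in CPM, with 1 added, on a log axis, by plate, over all kept cells without BMP4, at 24 h and at 4 d. Sct is higher at 4 d than at 24 h on 4 of 4 plates, Nts on the 3 plates that hold it, and Gcg is lower at 4 d on both Gcg-Venus plates.

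Of 8 tested BMP targets, Id1, Id2 and Id3 had passed at 24 h over untreated, and none passed at 4 d over 24 h over all kept cells. Of the 8, out of 14 listed, 5 were higher on 4 of 4 plates and 0 lower (7.71 and 9.26% of all genes), and the median was 0.81, against 3.03 for the same genes at 24 h over untreated. Id1, an inhibitor of helix-loop-helix factors and a direct Smad target, stood at 674, 215, 195 and 395 CPM at 4 d, against 388, 121, 153 and 112 at 24 h and 17.7, 5.96, 1.38 and 5.55 in untreated cells (0.95 ± 0.24, adjusted p = 0.14). Its sister gene Id3 stood at 860.5, 225, 262 and 514 CPM at 4 d, against 439, 183, 168 and 296 at 24 h (0.67 ± 0.19, adjusted p = 0.2), and Id2 was at 0.45 ± 0.23 (0.58). In enteroendocrine-like clusters Id1 rose by 1.12 ± 0.19 (adjusted p = 0.0065) and Id3 by 0.85 ± 0.20 (0.0498), while Id2 was at 0.65 ± 0.17 (0.097).

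Smad6 and Smad7, which block the receptor and the signalling Smads, were higher at 4 d on 4 of 4 plates and did not pass. Both rest on few transcripts, 5 of Smad6 and 7 of Smad7 on Gcg-Venus 2 at 4 d. Smad6 was at 62.3, 39.9, 30.4 and 59.5 CPM at 4 d, against 11.9, 11.1, 17 and 30.2 at 24 h (1.42 ± 0.37, adjusted p = 0.15). Smad7 was at 28.3, 54.1, 42.6 and 45.6 CPM at 4 d, against 0, 25.9, 23.4 and 10.7 at 24 h (1.51 ± 0.42, adjusted p = 0.18). Skil, a repressor of Smad-driven transcription, was at 1.02 ± 0.33 (0.27). Bambi, a decoy receptor, was at 0.13 ± 0.46, and Tgif1, a Smad co-repressor, at -0.42 ± 0.26. At 24 h over untreated these 3 did not pass either, Skil being at 0.91 ± 0.37, Bambi at -0.18 ± 0.42 and Tgif1 at 0.16 ± 0.24. Of 9 tested genes for BMP receptors and their Smads none passed (median 0.01), the type II receptor Acvr2b being at 0.79 ± 0.33 and the type I receptor Bmpr1a at -0.44 ± 0.24.

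**Figure D5:**
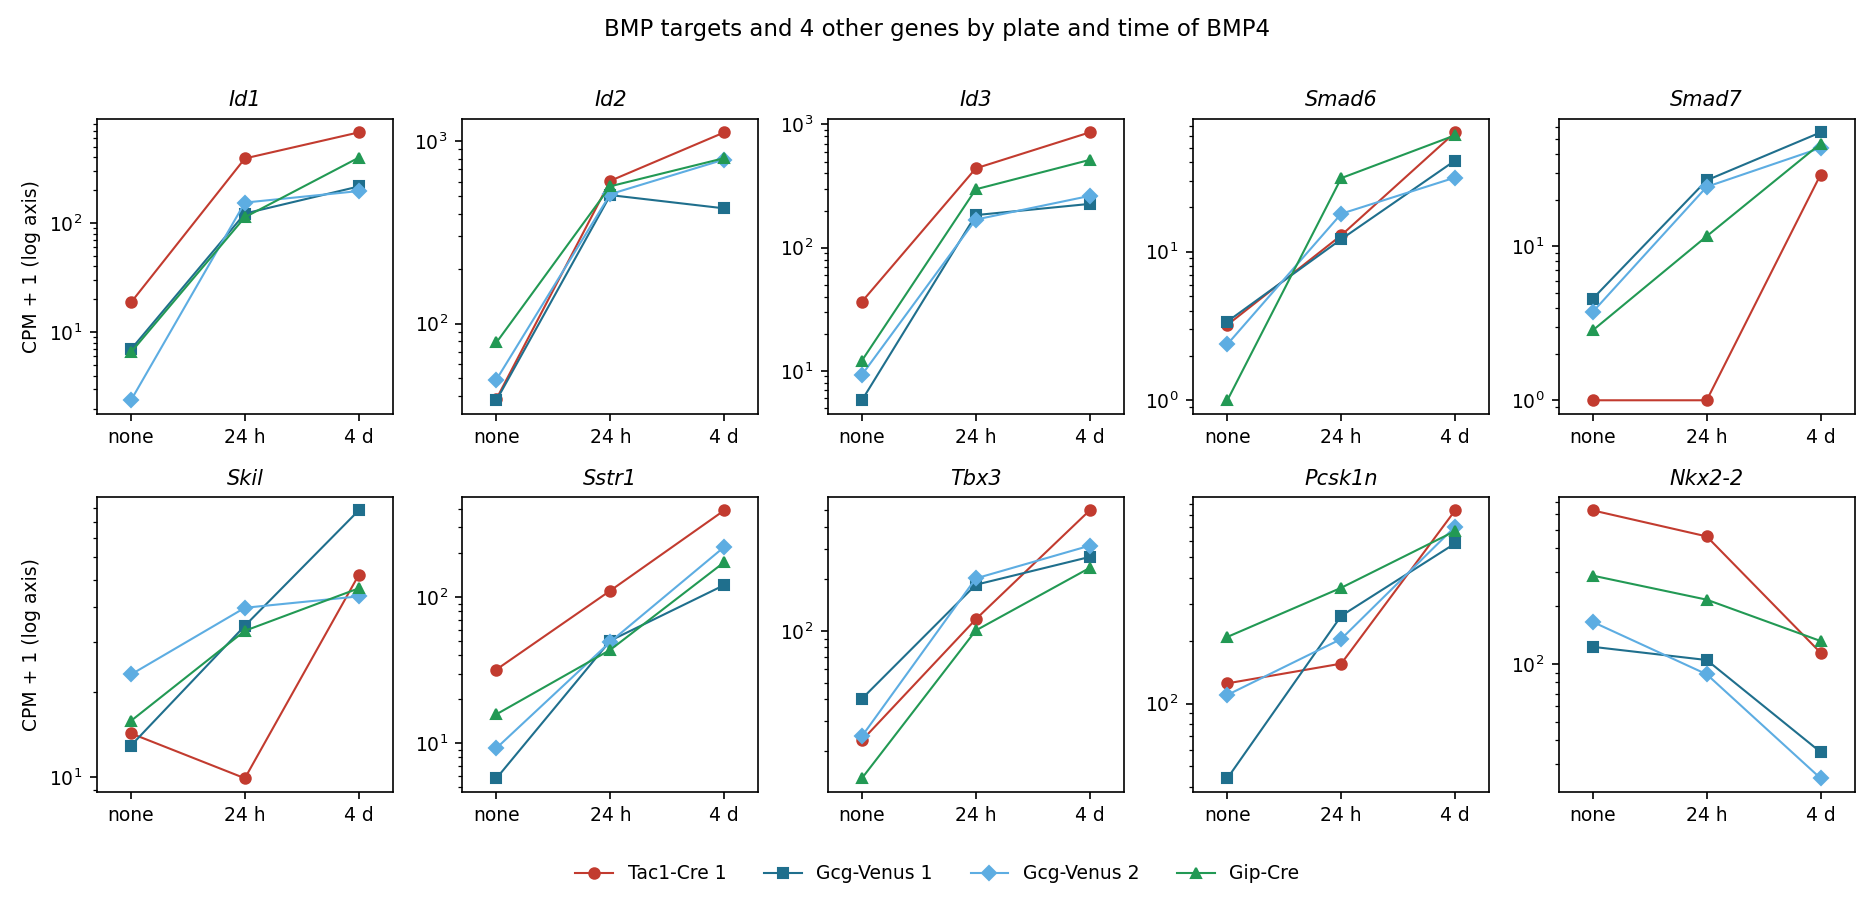
Levels in CPM, with 1 added, on a log axis of 6 BMP targets and of Sstr1, Tbx3, Pcsk1n and Nkx2-2, by plate, over all kept cells without BMP4, at 24 h and at 4 d. Id1 and Id3 step up between untreated and 24 h and lie higher again at 4 d on 4 of 4 plates, and Nkx2-2 lies lower at 4 d on 4 of 4 plates.

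Promoter windows of 2 genes are shown. Id3 is a direct target that was higher at 4 d. Kcnc1 is 1 of 8 genes that passed both over all kept cells and in enteroendocrine-like clusters. Of these 8, only Kcnc1 had a window in which the motif named below was found. It was chosen for that, so its matches are no finding. The windows run from 250 bases before to 50 after the start of the gene, in RefSeq's table for GRCm38.p6, and capitals mark GGCGCC, the GC-rich element that Smads are known to bind, which is its own reverse complement.
Kcnc1, chr7:46396218-46396517, plus strand: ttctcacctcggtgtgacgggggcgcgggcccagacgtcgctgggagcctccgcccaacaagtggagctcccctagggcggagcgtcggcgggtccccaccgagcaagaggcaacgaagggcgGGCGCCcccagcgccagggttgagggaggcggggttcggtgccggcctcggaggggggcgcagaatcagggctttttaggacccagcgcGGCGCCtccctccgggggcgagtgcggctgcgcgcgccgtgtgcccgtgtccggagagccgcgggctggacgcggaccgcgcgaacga
Id3, chr4:136143572-136143871, plus strand: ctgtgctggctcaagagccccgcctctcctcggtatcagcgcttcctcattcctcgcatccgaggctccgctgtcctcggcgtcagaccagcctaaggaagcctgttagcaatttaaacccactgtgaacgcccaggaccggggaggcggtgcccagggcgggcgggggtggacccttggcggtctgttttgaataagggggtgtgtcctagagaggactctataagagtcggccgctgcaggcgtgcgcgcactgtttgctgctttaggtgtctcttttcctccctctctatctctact
The Kcnc1 window held 2 matches and the Id3 window none. Of all 27025 windows of the table, 12% held the element. That share covers genes that were not tested here, and the share among the 7694 tested genes was not counted. The element was found in 7 of 26 windows of genes that rose in enteroendocrine-like clusters (26.9%) and in 1 of 15 of genes that fell (6.67%), the other 10 and 11 having no entry. Whether these shares differ from that of tested genes was not tested. A match describes letters only, and the motif was chosen after the calls were known.

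No transcription factor of the endocrine lineage passed over all kept cells. Of 22 tested, 9 were lower on 4 of 4 plates and 2 higher (9.26 and 7.71% of all genes), with a median of -0.45 and plate medians of -0.24, -1.04, 0.10 and -0.30. In enteroendocrine-like clusters 6 were lower and 2 higher (10.2 and 7.59% of all genes there), with a median of -0.28, and the share of enteroendocrine-like cells was itself lower at 4 d. Nkx2-2, a homeobox factor needed for enteroendocrine fate, stood at 113, 33.7, 24.4 and 130.4 CPM at 4 d, against 459.6, 104, 87.2 and 215 at 24 h (-1.38 ± 0.25, adjusted p = 0.063). In enteroendocrine-like clusters it was the 1 factor of 22 that passed (-1.09 ± 0.22, adjusted p = 0.018). Rfx6, a winged-helix factor of the lineage, was at -0.95 ± 0.23 (0.12), and Hhex, a homeobox factor of somatostatin cells, at -1.85 ± 0.54 (0.2). Nkx2-2 and some other members were also used to name the clusters.

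Secretory granule genes mostly kept within the spread of plates. None of 26 passed over all kept cells (median -0.22), 2 being higher and 5 lower on 4 of 4 plates (7.71 and 9.26% of all genes). Pcsk1n, the inhibitor of the prohormone convertase PC1/3, stood at 838, 582, 700.4 and 667 CPM at 4 d, against 154, 262, 203 and 357 at 24 h (1.53 ± 0.32, adjusted p = 0.074). It rose in enteroendocrine-like clusters by 1.73 ± 0.27 (0.0025). Syt7, a calcium sensor of granule release, rose there by 1.23 ± 0.28 (0.039). Pcsk1n, like Chga and Ptprn2 below, is an endocrine marker of the kind used to name these clusters. Its rise within them may therefore not be independent of how the cells were chosen. Pam, the peptide-amidating enzyme, was at -0.72 ± 0.20 and Ptprn2, a granule membrane protein, at -0.87 ± 0.24, both lower on 4 of 4 plates and neither passing. Of 9 serotonin genes none passed over all kept cells (median 0.57). Ddc, the decarboxylase that completes serotonin synthesis, stood at 1500.2, 322, 280.1 and 824 CPM at 4 d, against 2918, 618, 657 and 1115 at 24 h (-0.87 ± 0.19, adjusted p = 0.097), and fell in enteroendocrine-like clusters (-1.02 ± 0.20, 0.013). Chga, chromogranin A, was at 0.57 ± 0.29 and Slc18a1, the vesicular monoamine transporter, at 0.63 ± 0.22.

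Of 16 tested nutrient and hormone receptors, Sstr1 rose and Gfra3 fell, as above, and 14 did not pass (median -0.26). Ret, the kinase that signals for Gfra-type receptors, was higher on 4 of 4 plates at 0.80 ± 0.29 (adjusted p = 0.35), and stood at 119, 664, 719 and 116 CPM at 4 d, against 14.8, 523, 533 and 67.5 at 24 h.

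Among villus tip genes 4 of 10 rose, and among crypt and stem cell genes 3 of 6 fell, inside the enteroendocrine-like cells, where 0.468% of all genes were called higher and 0.338% lower. Of these 7, only Tbx3 passed whichever plate was left out. Of 10 tested villus tip genes none passed over all kept cells (median 1.01), 4 being higher on 4 of 4 plates and 0 lower (7.71 and 9.26% of all genes). In enteroendocrine-like clusters 5 were higher and 1 lower (7.59 and 10.2% of all genes there), with a median of 0.62. Klf4, a zinc finger factor of differentiated epithelium, stood in enteroendocrine-like clusters at 346, 101, 183 and 30.2 CPM at 4 d, against 19.7, 31.8, 52.5 and 3.86 at 24 h (2.17 ± 0.44, adjusted p = 0.021). Nt5e, the ectonucleotidase CD73, stood at 360.1, 335, 291 and 69.98 CPM at 4 d, against 59.1, 131, 149 and 30.9 at 24 h (1.39 ± 0.29, adjusted p = 0.023). Tbx3, a T-box repressor, rose by 1.17 ± 0.21 (0.0074), and Apoa4, an apolipoprotein of chylomicrons that is also in the enterocyte list, by 2.70 ± 0.58 (0.03). At 24 h against untreated Tbx3 had passed too, at 2.60 ± 0.30, while Klf4 was at -0.40 ± 0.51. Of 6 crypt and stem cell genes tested there, 3 fell (median -1.20; 0 of 7 passed over all kept cells). Smoc2, a matrix protein of intestinal stem cells, stood at 0, 0, 0 and 7.95 CPM at 4 d, against 29.5, 14.4, 18.3 and 54 at 24 h (-3.18 ± 0.59, adjusted p = 0.011). Cd44, a Wnt-responsive adhesion receptor, fell by 1.77 ± 0.41 (0.043), and Sox9, a crypt transcription factor, by 1.63 ± 0.33 (0.02). When clusters with as few as 5 endocrine markers entered, Sox9 no longer passed (adjusted p = 0.92).

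Over all kept cells, lists of other cell types showed no call beyond goblet genes. Of 20 tested enterocyte genes none passed over all kept cells (median 0.82), and plate medians, over genes with at least 5 transcripts on the plate, were 0.96, 2.98, -1.12 and 1.00. The sign was negative on Gcg-Venus 2, the plate with 1 enterocyte-like cell at 4 d and 16 at 24 h. Apoc3, an apolipoprotein gene, was at 1.33 ± 0.44. The tuft cell genes Avil, Rgs13 and Dclk1 were at 2.54 ± 0.92, 3.33 ± 1.26 and 2.02 ± 1.09, most of it on Gcg-Venus 1. On Tac1-Cre 1 they went the other way, at -0.45, -2.77 and -2.36. Avil and Dclk1 were lower at 4 d on 2 plates and Rgs13 on 1. The Paneth cell gene Lyz1 was at -0.35 ± 0.66. None of 7 proliferation genes passed, Tyms, a thymidylate synthase gene, being at 1.29 ± 0.43 (0.28).

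No gene of the stress and housekeeping lists passed at 4 d against 24 h over all kept cells. Of 17 genes of the unfolded protein response none passed over all kept cells (median -0.40). On 4 of 4 plates 6 were lower and 1 higher (9.26 and 7.71% of all genes). Manf, a secreted stress factor, stood at 73.6, 142, 116 and 133 CPM at 4 d, against 181, 214, 188 and 208 at 24 h (-0.79 ± 0.20, adjusted p = 0.14), and fell in enteroendocrine-like clusters by 0.87 ± 0.19 (0.034). Hsp90b1, a chaperone of the endoplasmic reticulum, was at -0.64 ± 0.19 (0.2). None passed among 15 genes of Atf4 and amino acid stress (median 0.06), 17 immediate early and heat shock genes (0.04), 12 interferon and antigen presentation genes (0.12) and 17 of cholesterol synthesis (0.22). Of 69 ribosomal protein genes 36 were lower on 4 of 4 plates and 0 higher (9.26 and 7.71% of all genes), with a median of -0.34 and no call, and of 71 genes of oxidative phosphorylation 11 were lower and 0 higher (median -0.11). The ribosomal list was added after values had been seen.

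Kcnq1ot1 stood at 71613, 29029, 40157 and 49524 CPM at 4 d, against 15994, 17375, 11298 and 12246 at 24 h (1.80 ± 0.47, adjusted p = 0.14). In enteroendocrine-like clusters it was at 0.31 ± 0.23 (0.71), higher on 2 plates and lower on 2. Those sums leave out the unnamed clusters, which were highest in Kcnq1ot1 and may be set apart by it, so the source of its change was not tested. After thinning, 82.9% of enteroendocrine-like cells held at least 5 Kcnq1ot1 transcripts at 4 d, against 66.3% at 24 h (means over plates). That share was higher at 4 d on 3 plates and lower on 1 (exact permutation p = 0.25). Without the unnamed clusters 5 genes were higher and 4 lower over the other kept cells. Meg3, a long noncoding RNA, fell in enteroendocrine-like clusters by 2.13 ± 0.41 (0.013), at 35.3, 1.98, 0 and 146 CPM at 4 d, against 407, 1.44, 1.14 and 392 at 24 h, and Malat1, a nuclear RNA, was at 0.19 ± 0.26 over all kept cells.

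Plates outside the comparison gave values for the same genes, over all kept cells and with no test. On Tac1-Cre 2, with 16 cells at 4 d and 9 at 24 h, 47 of the 62 genes that passed in enteroendocrine-like clusters moved in the same direction (75.81%, against 51.53% of all 7694 tested). On the plates that held 1 condition, both 4 d plates (30 and 45 cells) were compared with the 24 h plate (48 cells). Their levels both lay on the side of the comparison for 50 of the 62 (80.65%, against 37.35% of all). Of the rest of the 62, 6 lay on the opposite side and 6 had no common side. Over all 7694 genes these were 2071 and 2749, so many genes without a common side enter the 37.35%. Sstr1 was at 171 CPM at 4 d on Tac1-Cre 2, against 34.1 at 24 h, and at 336 and 835 CPM on the 4 d plates, against 41.5 on the 24 h plate. Acly was at 76.1 CPM at 4 d on Tac1-Cre 2, against 375 at 24 h, and at 173 and 182 CPM on the 4 d plates, against 369 on the 24 h plate. Other genes went against the comparison on Tac1-Cre 2. Id3 was at 323 CPM at 4 d, against 511 at 24 h, Id2 at 381, against 545, and Smad7 at 0, against 68.2. Gfra3 was at 105 CPM at 4 d there, against 102 at 24 h. All these cells are of the Tac1 line, and on the single-condition plates condition and plate cannot be told apart.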

How the data were processed

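Single reporter-positive cells were prepared by SORT-seq, which builds on CEL-seq2 and marks each transcript with a random identifier, and sequenced in pairs of 75 bases, per the labels' protocols. The submitters' processing notes name BWA 0.6.2-r126 and mm10. What counted the reads, with which annotation and by which strand rule, the sources used here do not state. The authors deposited expected counts, that is transcript numbers for each gene in each well, corrected for identifiers that were hit more than once. Undoing that correction for 4096 identifiers gave whole numbers within 0.01 for 100% of values on every plate, although the labels describe a shorter identifier. Genes were used if both of the 2 kinds of file listed them (16115 of 19754 and 17087); the Gip and Gcg files list no mitochondrial gene. No doublet caller was run, since each well took 1 sorted cell.

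Wells with at least 2000 transcripts were summed by plate and condition (at least 10 cells a sum, 12 sums with the untreated ones) and rounded. Genes were kept with filterByExpr, scaled by TMM and tested with edgeR 4.0.16 (R 4.3.3) by its quasi-likelihood test, with condition and plate as terms; a gene passed where its p, adjusted by Benjamini-Hochberg, was under 0.05. CPM are TMM-scaled, except those of marker sums, clusters and plates outside the comparison. Plate counts of a direction compare CPM, and plate ratios had 0.5 transcripts added. Residuals of sums from the same plate correlated at 0.28 to 0.79 in all 12 pairs, and the plates pair the conditions by design. In simulated counts of the 4 d against 24 h comparison, with 7981 genes in the step, 84.00% of genes changed by 1.5 and 98.99% of those changed by 3 on the log2 scale were recovered, and 9.453% of 201 calls were false.

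Cells were clustered with scanpy 1.11.5 and leidenalg 0.10.2 (1500 variable genes, 20 components, 15 neighbours). A cluster was called enteroendocrine-like when at least 10 of 18 markers were found in 50% of its cells. That number was raised from 5 after the clusters had been seen, the nearest counts being 5 and 11. Enterocyte-like and goblet-like needed 3 markers among the top 20 genes. Shares of cells with at least 5 transcripts were taken after thinning each cell to 2000 transcripts, and intervals cover counting error only.

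Named genes are the 10 largest rises and 10 largest falls that passed, had one direction on 4 plates and reached 5 as average log2 CPM (places left over went to the smallest p), all tested hormones and BMP targets, and up to 3 genes by smallest p of each other list. Predicted genes, Rik clones and ribosomal genes were left out. The members and lists were chosen with earlier results of these data known. Alternatives tried were other scalings, no filter on low counts, DESeq2 1.42.0, other sets of sums, each plate left out, no plate block, other depth limits, thinning and cluster choices.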

Additional observations from a re-analysis of the deposited data

Results flagged for a closer look

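Of 85 sets of 4 plate values examined, 7 held 1 plate far from the other 3; chance flags about 1 in 20. On Tac1-Cre 1 the log2 ratio of 4 d to 24 h was 3.691 for Tmsb4x, against 1.704 to 1.95 on the other plates. Ret was at 2.9 there, against 0.3425 to 0.7774. Bmpr1a was at -0.8852 on that plate, against -0.4431 to -0.3658, and Manf at -1.255, against -0.6667 to -0.5881. On Gip-Cre the ratio of Mvd, an enzyme of cholesterol synthesis, was 1.415, against 0.1927 to 0.3791. Atp5e, an ATP synthase subunit, was at -0.1578 on that plate, against -0.5573 to -0.496. The median of spike-in transcripts per kept 4 d cell was 811.16 on Tac1-Cre 1, against 364.67 to 405.9 on the other plates, and it was high at 24 h on that plate too.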

How the results depend on the processing

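Over all kept cells 8 genes were higher and 4 lower. The number without the plate as replicate block was 0 higher and 0 lower, and the block is part of the main fit. Leaving out one plate at a time gave 0 to 99 higher and 0 to 17 lower. With library totals in place of TMM, which shifted the median by -0.12, 9 were lower. With no filter on low counts 256 were higher and 98 lower, with DESeq2's Wald test 80 and 22, and with cells thinned to 2000 transcripts 38 were higher. The 8 sums of 4 d and 24 h alone gave 0 lower, and 14 sums of 5 plates gave 25 higher and 8 lower. With cells of at least 1000 transcripts 5 were higher. Enteroendocrine-like clusters alone gave 36 higher and 26 lower. Of the alternatives chosen after seeing the data, leaving out the unnamed clusters gave 5 higher, 15 sums of at least 5 cells gave 90 higher and 19 lower, and clusters named from 5 markers gave 83 higher and 34 lower. DESeq2 size factors and a limit of 4000 transcripts left both numbers within 1.5 times. The cause was not tested. No named gene passed in one direction in the main fit and changed sign under an alternative. The 62 calls in enteroendocrine-like clusters became 26 to 84 with one plate left out, 60 with DESeq2 (51 shared), 117 with 5 markers (56 shared) and 0 without the plate block. Depth limits low genes most: Sncb rests on 3 transcripts at 4 d. The smallest 4 d sum, 167106 transcripts, came from 24 cells.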
